A study of Mus musculus and Homo sapiens with 17 samples.

Results

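The genes described here are 10 ligands, receptors and enzymes of the immune checkpoints, read in skin tumours labelled by their DUSP1 status. They are Cd274 (PD-L1), Pdcd1lg2 (PD-L2), Pdcd1 (PD-1), Havcr2 (TIM-3), Lag3, Tigit, Cd80, Cd86, Ido1 and Lgals9 (galectin-9), picked by name from 54532 named mouse features. Of these, 6 are ligands or enzymes that tumour cells can make, and they were also read, in upper case, among 58735 named features of the human line A431. The mouse libraries numbered 11 and came from whole frozen sections of C57BL/6-129 mice, all exposed to the carcinogen DMBA and the tumour promoter TPA. They were 2 libraries of squamous cell carcinoma (SCC) labelled DUSP1 KO, 3 of papilloma labelled DUSP1 KO, 3 of SCC from wild-type (WT) mice and 3 of WT skin. There was no KO skin and no WT papilloma, so the papilloma differs from WT SCC in lesion and genotype at once. The 6 A431 libraries came from squamous carcinoma cells carrying a guide RNA against DUSP1 (3 libraries, DUSP1 KO) or against Tomato (3 libraries, control). Tumours were grown for 3 weeks from 100000 intradermal cells, and RNA was extracted from the human cells left once the host's cells had been depleted. The age of the mice is not stated in the labels. Sample descriptions mark all 3 A431 KO libraries CL2 without saying whether that is a clone, and KO replicates 2 and 3 carry the same sample name after their running number, so whether they are separate tumours is not known.

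Immune checkpoints are brakes on T cells. PD-1, TIM-3, LAG-3 and TIGIT are receptors that appear on T cells after activation and stay high on T cells exposed to antigen for long, and TIM-3 is also carried by macrophages and dendritic cells. PD-L1 and PD-L2 engage PD-1, and PD-L1 is made by tumour cells, endothelium and myeloid cells, with interferon gamma as its best known inducer. CD80 and CD86, found mainly on antigen-presenting cells, bind the activating receptor CD28 and the inhibitory receptor CTLA-4, galectin-9 binds TIM-3 among others, and IDO1 breaks down tryptophan, which T cells need. DUSP1 is a phosphatase that switches MAP kinases off.

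Counts summed to 34.4 to 47.9 M (units of 1e6) in mouse libraries and 41.2 to 53.5 M in A431 libraries, so that 3 counts, the most that a count of 0 allows for counting error, correspond to at most 0.0871 counts per 1e6 counts (CPM) in mouse. The label KO was not borne out by the RNA in mouse: Dusp1 had 139 and 174 CPM in KO SCC and 109 to 129 CPM in KO papilloma, against 66.6 to 83.7 CPM in WT SCC and 52.4 to 109 CPM in WT skin. By edgeR, Dusp1 was 2.11-fold higher in KO SCC than in WT SCC (adjusted p = 0.0284). The files give counts per gene only, so RNA from an altered allele cannot be told from intact RNA, and each mouse KO group below is a group so labelled. In A431, DUSP1 was 6.42-fold lower in the KO cells (edgeR, adjusted p = 4.89e-17), at a mean of 73.9 CPM against 475 CPM in control cells. KO SCC replicate 2 stood apart from the other lesions, with 4779 counts on Y-linked genes and 617 on Xist, where the other KO and WT lesion libraries had 0 Y-linked counts. Of WT skin, replicates 1 and 2 held 6624 and 9552 Y-linked counts and replicate 3 held 7. Xist, made from the inactive X chromosome of females, had 3 and 35 counts in those skin replicates 1 and 2 and 7047 to 23236 counts in the other lesion libraries, so that KO SCC replicate 2 alone held sizeable counts of both kinds. Whether it comes from more than 1 animal or carries the wrong label is not known, and it is 1 of the 2 KO SCC libraries. The Y-linked counts also set WT skin replicates 1 and 2 apart from all WT SCC and KO papilloma libraries. Sex was thus partly mixed with lesion in every comparison with WT skin, and its part in those results was not tested. The label names keratinocytes, yet sections hold all cells of a tissue: 8 general leukocyte genes summed to 143 to 182 CPM in KO SCC, 193 to 297 CPM in KO papilloma, 203 to 257 CPM in WT SCC and 374 to 521 CPM in WT skin. Keratinocyte markers summed higher in all lesion groups than in skin, at 51332 to 55095 CPM in KO SCC, 44123 to 71956 CPM in KO papilloma and 41533 to 43887 CPM in WT SCC, against 9484 to 19501 CPM in WT skin. Krt14 made up 62.7% of that sum. Without Krt14 it was 14095 to 15021 CPM in KO SCC, 16488 to 24271 CPM in KO papilloma and 14725 to 17148 CPM in WT SCC, against 6314 to 11444 CPM in WT skin. The order of KO SCC and WT SCC thus rested on that gene. In bulk tissue, fewer cells of a type and less RNA per cell cannot be told apart.

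The start sites of 3 genes are shown because their RNA behaved differently: Cd80 was higher in every lesion group than in skin, Cd274 was lower in every lesion group, and Lgals9 was lowest in KO SCC. RefSeq promoters of build GRCm38.p6, running from 250 bases before to 50 bases from the start site on, were found for 7 of the 10 genes. They were searched on both strands for the AP-1 motif TGANTCA, the interferon-stimulated response element (GAAA, any 2 bases, GAAA) and the gamma-activated site TTCNNNGAA, and matches are in capitals.
Cd80, chr16:38458683-38458982, + strand: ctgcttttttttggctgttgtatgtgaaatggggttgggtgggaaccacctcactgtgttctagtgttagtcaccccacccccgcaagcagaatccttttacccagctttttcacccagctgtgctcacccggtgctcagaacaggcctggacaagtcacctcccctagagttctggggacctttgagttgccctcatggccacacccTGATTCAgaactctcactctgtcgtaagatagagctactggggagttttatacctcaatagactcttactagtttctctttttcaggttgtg
Cd274, chr19:29367188-29367487, + strand: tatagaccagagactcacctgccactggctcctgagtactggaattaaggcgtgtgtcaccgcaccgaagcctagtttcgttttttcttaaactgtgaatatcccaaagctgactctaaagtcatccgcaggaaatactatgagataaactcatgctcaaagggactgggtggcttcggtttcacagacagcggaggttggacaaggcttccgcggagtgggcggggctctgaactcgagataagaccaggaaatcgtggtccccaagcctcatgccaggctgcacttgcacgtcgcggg
Lgals9, chr11:78984875-78985174, - strand: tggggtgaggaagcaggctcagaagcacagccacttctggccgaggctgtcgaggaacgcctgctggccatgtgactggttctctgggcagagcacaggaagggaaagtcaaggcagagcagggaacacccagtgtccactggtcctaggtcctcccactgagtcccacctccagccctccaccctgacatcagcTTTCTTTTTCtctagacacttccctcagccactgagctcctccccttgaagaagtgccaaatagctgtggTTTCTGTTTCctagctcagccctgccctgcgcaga
The Cd80 window held 1 AP-1 match, TGATTCA, whose leftmost base lay at position -42 with the RefSeq start site counted as 0. That window lies inside the gene as GENCODE M21 places it (38455561 to 38496335), downstream of the start given there. The 2 annotations thus differ on where Cd80 starts. The Lgals9 window held 2 matches to the interferon-stimulated element read on the other strand, TTTCTTTTTC at -55 and TTTCTGTTTC at 15. No match to any of the motifs was present in the windows of Cd274, Pdcd1lg2, Pdcd1 and Tigit, and that of Havcr2 held 1 AP-1 match at -200. Over all 32851 mouse promoters of this length, 7.81% held the AP-1 motif, 3.44% the interferon-stimulated element and 8.3% the gamma-activated site. A match describes these letters and does not show that a factor binds there.

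Levels are CPM scaled by TMM normalization, and changes were tested with edgeR's quasi-likelihood test over all 22371 mouse genes kept, with Benjamini-Hochberg adjustment at 0.05. All 10 genes passed the filter on low counts. In WT SCC against WT skin, 1 of the 10 rose (Cd80) and 3 fell (Cd274, Cd86 and Lag3), beside 40.5% of all genes called in that comparison, 16.9% higher and 23.6% lower. The median log2 fold change of the 10 genes was -0.77, against -0.16 over all genes tested. With 4 of 10 called, the share was that of the background.

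Cd80, the CD28 and CTLA-4 ligand that antigen-presenting cells induce on activation, had the clearest pattern. It lies on chromosome 16 (GRCm38, 38455561 to 38496335, + strand). Its level was 20.1 and 18.1 CPM in KO SCC, 8.48, 11.6 and 14.4 CPM in KO papilloma, and 18.1, 17.3 and 13.3 CPM in WT SCC, against 3.23, 1.93 and 2.33 CPM in WT skin. Every lesion library lay above every skin library. WT SCC was 6.51-fold higher than WT skin (log2 2.70 ± 0.26 SE, adjusted p = 2.95e-05). KO SCC and KO papilloma were 7.67-fold and 4.61-fold higher than WT skin (adjusted p = 2.38e-05 and 8.71e-05), in comparisons that share the skin libraries with the first and called 44.8% and 39.6% of all genes. From high to low the lesions were ordered KO SCC, WT SCC and KO papilloma. Neither neighbouring pair was called: KO SCC against WT SCC had a log2 fold change of 0.24 (95% interval -0.34 to 0.81), and KO papilloma against WT SCC of -0.50 (-1.02 to 0.02). KO SCC lay above KO papilloma without overlap (log2 0.74, interval 0.16 to 1.31), a difference that did not pass after adjustment over all genes (adjusted p = 0.232). Of 14 dendritic cell markers tested in WT SCC against WT skin, 2 rose and 11 fell (median log2 -1.75). Itgax (CD11c) was among those that rose, at 26.3 ± 3.01 CPM in WT SCC and 13.9 ± 2.21 CPM in WT skin (SD, n = 3 each; adjusted p = 0.00839). Flt3 was among those that fell, at 2.40 ± 1.05 CPM in WT SCC and 10.4 ± 3.10 CPM in WT skin (SD, n = 3 each). Of 12 keratinocyte markers 9 rose and 2 fell. Both lists stand beside 16.9% of all genes called higher and 23.6% lower in that comparison. The part of either cell type in the Cd80 result was not tested.

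Cd86, its partner ligand for the same receptors, moved the opposite way. It had 4.68 and 5.86 CPM in KO SCC, 5.77, 9.03 and 6.92 CPM in KO papilloma, and 6.01, 3.99 and 4.87 CPM in WT SCC, against 11.8, 10.1 and 13.6 CPM in WT skin. No lesion library reached the lowest skin library. The level was 2.39-fold lower in WT SCC than in WT skin (log2 -1.26 ± 0.23 SE, adjusted p = 0.00162), 2.25-fold lower in KO SCC (adjusted p = 0.00447) and 1.64-fold lower in KO papilloma (adjusted p = 0.03). Between the lesion groups no difference passed the test, KO papilloma lying nearest to skin with a log2 fold change of 0.55 against WT SCC (95% interval 0.04 to 1.06, adjusted p = 0.223).

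Because Cd80 and Cd86 were counted in the same libraries, their ratio does not depend on scaling, and their exon lengths are close (3703 and 3661 bases). Counts of Cd80 divided by counts of Cd86 were 4.31 and 3.09 in KO SCC, 1.47, 1.28 and 2.08 in KO papilloma, and 3.02, 4.32 and 2.73 in WT SCC, against 0.273, 0.191 and 0.171 in WT skin. Cd86 thus held most of the counts of the pair in every skin library and Cd80 in every lesion library. The ratio was 15.9-fold higher in WT SCC than in WT skin, and the groups lay far apart relative to their spread. In KO papilloma it was 2.09-fold lower than in WT SCC, with no overlap, and in KO SCC 2.31-fold higher than in KO papilloma. Each of these had an exact two-sided permutation p of 0.1, the smallest that these group sizes allow, and 0.171 after adjustment over the 24 ratio tests made. KO SCC and WT SCC overlapped (exact permutation p = 0.6). The ratios were chosen after the levels had been seen.

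**Figure D1:**
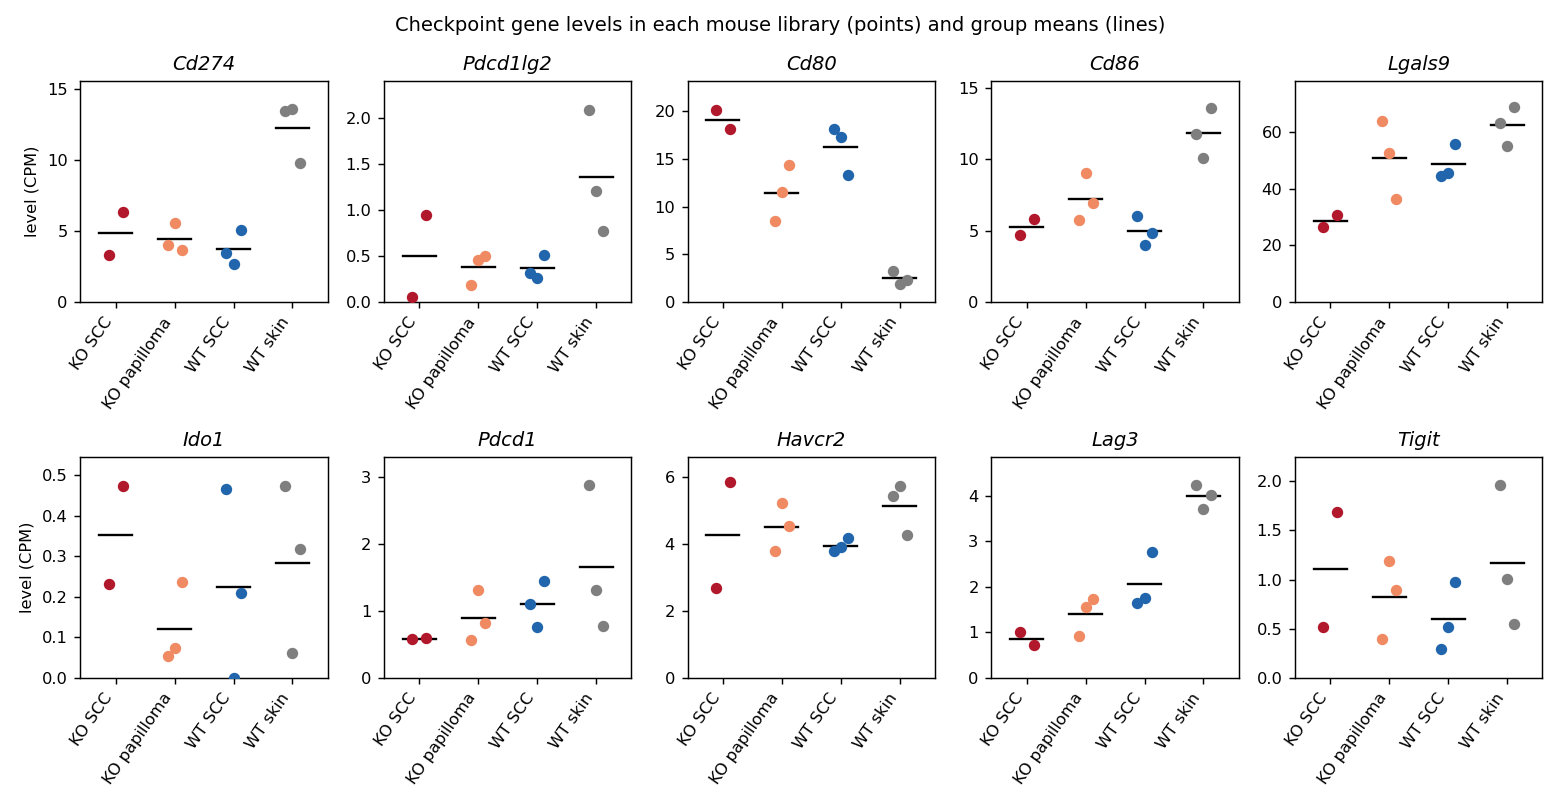
Level in CPM (y axis, from 0, a scale of its own per gene) of the 10 checkpoint genes in each mouse library (points) and the mean of each group (line), for KO SCC, KO papilloma, WT SCC and WT skin. Cd80 lies between 8.48 and 20.1 CPM in the lesions and at 1.93 to 3.23 CPM in skin, whereas Cd274, Cd86 and Lag3 lie highest in skin.

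On the PD-1 axis, Cd274 (chromosome 19, 29367455 to 29388095, + strand) had 3.32 and 6.38 CPM in KO SCC, 4.01, 5.57 and 3.70 CPM in KO papilloma, and 3.48, 2.70 and 5.08 CPM in WT SCC, against 13.4, 13.6 and 9.84 CPM in WT skin. Its order was WT skin, KO SCC, KO papilloma and WT SCC, and of these neighbours only skin and KO SCC differed beyond the spread. PD-L1 RNA was 3.27-fold lower in WT SCC than in WT skin (log2 -1.71 ± 0.31 SE, adjusted p = 0.00159), 2.53-fold lower in KO SCC (adjusted p = 0.0107) and 2.77-fold lower in KO papilloma (adjusted p = 0.00354). KO SCC against WT SCC gave a log2 fold change of 0.37 (95% interval -0.38 to 1.13, adjusted p = 0.559). Without KO SCC replicate 2 this value was -0.18, so its sign rested on that library.

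Pdcd1lg2, the other PD-1 ligand and the neighbour of Cd274 on chromosome 19, was scarcer per length of exon in every group, with 0.255 ± 0.319 CPM per kb in KO SCC and 0.692 ± 0.340 CPM per kb in WT skin, where Cd274 had 1.34 ± 0.598 and 3.39 ± 0.588 CPM per kb (SD, n = 2 in KO SCC and 3 in WT skin). It had 2 and 38 counts in KO SCC, or 0.0577 and 0.944 CPM, the lowest and the highest of all lesion libraries. It lay between 0.186 and 0.498 CPM in KO papilloma and between 0.268 and 0.512 CPM in WT SCC, against 0.776 to 2.09 CPM in WT skin. WT SCC and WT skin did not overlap, yet the difference was not called (log2 -1.88 ± 0.80 SE, adjusted p = 0.0812). It passed in DESeq2 (adjusted p = 0.0469) and when WT SCC and WT skin were fitted alone (0.0362), and not under the other alternatives (0.0583 to 0.228). KO SCC against WT SCC had a log2 fold change of 0.46, and of -2.61 without KO SCC replicate 2, neither past the test.

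Pdcd1, the PD-1 receptor itself, had 20 and 24 counts in KO SCC, which is 0.577 and 0.596 CPM. It lay at 0.558 to 1.31 CPM in KO papilloma and 0.762 to 1.44 CPM in WT SCC, against 0.776 to 2.88 CPM in WT skin. KO SCC lay below WT SCC in every library, with a log2 fold change of -0.91 and a 95% interval of -2.24 to 0.42 (adjusted p = 0.391). No pair of groups was called, and WT skin by itself covered a range wider than the differences between group means.

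Lag3, a receptor for MHC class II that restrains T cells, was ordered WT skin, WT SCC, KO papilloma and KO SCC from high to low. It had 1.01 and 0.720 CPM in KO SCC, 0.930, 1.56 and 1.73 CPM in KO papilloma, and 1.65, 1.75 and 2.77 CPM in WT SCC, against 4.25, 3.71 and 4.02 CPM in WT skin. Every skin library lay above every lesion library, and both KO SCC libraries lay below all WT SCC libraries. The fall in WT SCC against WT skin was 1.94-fold (log2 -0.95 ± 0.32 SE, adjusted p = 0.0337). It lost its call when any of the WT skin libraries, WT SCC replicate 1 or WT SCC replicate 2 was left out (adjusted p = 0.0567 to 0.114), and without the filter on low counts. Against WT skin, Lag3 was 4.61-fold lower in KO SCC (adjusted p = 0.000989) and 2.83-fold lower in KO papilloma (adjusted p = 0.00388). KO SCC against WT SCC was 2.38-fold lower without passing the test (log2 -1.25 ± 0.38 SE, adjusted p = 0.0673), and did pass in DESeq2 (adjusted p = 0.0238) and when both groups were fitted alone (0.0472). Under the other alternatives the adjusted p was 0.0725 to 0.256.

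Lgals9, the gene of galectin-9, was the most abundant of the 10 in every group, also per length of exon: 13.4 ± 1.38 CPM per kb in KO SCC, 23.8 ± 6.46 CPM per kb in KO papilloma, 22.7 ± 2.95 CPM per kb in WT SCC and 29.1 ± 3.25 CPM per kb in WT skin (SD, n = 2, 3, 3 and 3). Its level was 26.6 and 30.7 CPM in KO SCC, 63.9, 52.5 and 36.4 CPM in KO papilloma, and 44.5, 45.4 and 55.9 CPM in WT SCC, against 63.1, 54.9 and 68.7 CPM in WT skin. Both KO SCC libraries lay below all 9 others. KO SCC was 1.70-fold lower than WT SCC (log2 -0.76 ± 0.22 SE), with an adjusted p of 0.0582 that missed the threshold. The same comparison passed in DESeq2 (adjusted p = 0.0183), without the filter (0.0377) and when KO SCC and WT SCC were fitted alone (0.00517). It did not pass with RLE size factors (0.0707), with the replicate block (0.133) or with any of the 5 libraries left out (0.0855 to 0.347). Against WT skin the fall in KO SCC was 2.17-fold (adjusted p = 0.00202), whereas WT SCC (log2 -0.36, 95% interval -0.78 to 0.07) and KO papilloma (log2 -0.29, -0.71 to 0.13) did not pass.

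Havcr2, which encodes the galectin-9 receptor TIM-3, had group means between 3.95 CPM in WT SCC and 5.13 CPM in WT skin. It had 2.68 and 5.84 CPM in KO SCC, 3.77, 5.21 and 4.53 CPM in KO papilloma, and 3.77, 3.89 and 4.17 CPM in WT SCC, against 5.41, 5.72 and 4.25 CPM in WT skin. No pair of groups was called, and the interval of the log2 fold change of WT SCC against WT skin ran from -0.99 to 0.24. KO SCC held the lowest and the highest library, and its log2 fold change against WT SCC was 0.11 with both and -0.56 without replicate 2.

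Tigit, the receptor for the nectin-like ligand PVR, had 18 and 68 counts in KO SCC, or 0.519 and 1.69 CPM. It lay between 0.399 and 1.19 CPM in KO papilloma and between 0.290 and 0.978 CPM in WT SCC, against 0.546 to 1.96 CPM in WT skin. All groups overlapped and no pair was called. Ido1 was close to the detection limit, with 8 and 19 counts in KO SCC, 2 to 9 in KO papilloma and 0 to 16 in WT SCC, against 3 to 19 in WT skin. Its intervals spanned more than 5 log2 units, so no statement on tryptophan breakdown by this enzyme could be made at this depth.

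**Figure D2:**
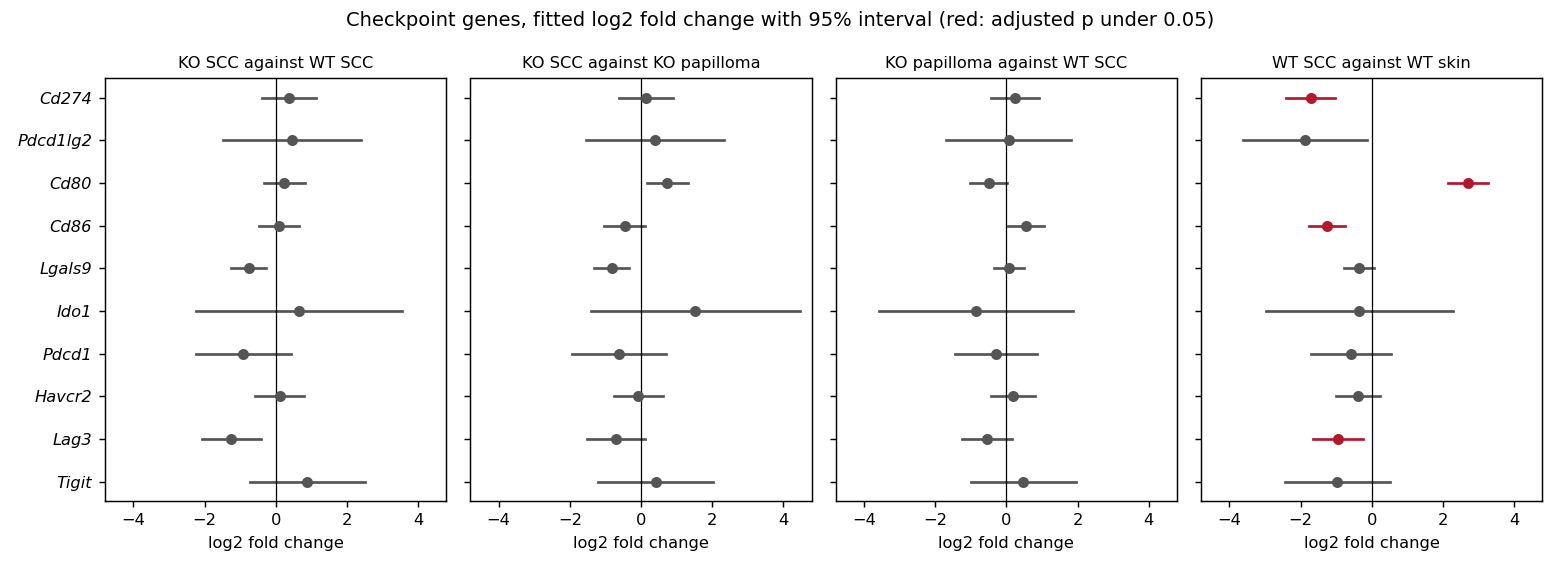
Fitted log2 fold change (x axis) of each checkpoint gene (rows) with its 95% interval (bar), from edgeR, in KO SCC against WT SCC, KO SCC against KO papilloma, KO papilloma against WT SCC and WT SCC against WT skin; red marks an adjusted p under 0.05. Calls appear in WT SCC against WT skin, where Cd80 lies at 2.70 and Cd274, Cd86 and Lag3 between -1.71 and -0.95.

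Between the genotypes, 0 of the 10 genes were called in KO SCC against WT SCC in edgeR, where 7.87% of all genes were called. At an unadjusted p under 0.05 there were 2, Lag3 and Lgals9, both lower, beside 5537 of all 22371 genes tested. DESeq2 called the same 2, beside 3466 genes in all. The median log2 fold change of the 10 genes was 0.17, against -0.01 over all genes tested. In KO SCC against KO papilloma, 0 of 10 were called by edgeR beside 0.286% of all genes. An unadjusted p under 0.05 was found for 2 (Cd80, higher, and Lgals9, lower), beside 3493 of all genes tested. DESeq2 called 1, Lgals9, beside 941 genes in all. In KO papilloma against WT SCC, 0 of 10 were called by edgeR, beside 5.25% of all genes, and 0 by DESeq2, beside 2232 genes. There 1 (Cd86) had an unadjusted p under 0.05, beside 4333 of all genes tested. For Pdcd1lg2, Tigit, Ido1 and Pdcd1 the intervals were wide enough to hold changes of more than 4-fold in some comparisons, so the lack of a call does not show equal levels. Macrophage and dendritic cell markers were lower in KO SCC than in WT SCC in their medians (log2 -0.67 for each list, with 1 of 14 and 2 of 14 called, all lower), as were the 8 general leukocyte genes (log2 -0.60, none called, 4 at an unadjusted p under 0.05). The B cell list moved most, with 3 of 9 genes called, all lower (the antibody genes Igkc and Jchain and the plasma cell gene Mzb1) and a median of -0.97. Its 10 genes summed to 18.3 to 25.4 CPM in KO SCC and 196 to 204 CPM in WT SCC. The part of these cell types in the values of Lag3 and Lgals9 was not tested. The 5 calls in KO SCC against WT skin held without KO SCC replicate 2, with log2 fold changes of 3.02 for Cd80, -1.34 for Cd86, -1.88 for Cd274, -1.98 for Lag3 and -1.23 for Lgals9 (adjusted p = 0.000191 to 0.0173). Pdcd1lg2 became a further call there, with a log2 fold change of -4.48 (adjusted p = 0.0134) without that library and -1.42 (adjusted p = 0.22) with it, the lone KO SCC library then holding 2 counts.

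Set against the T cell receptor complex, the receptors looked different than set against all RNA. The 3 CD3 chain genes Cd3d, Cd3e and Cd3g, which mark T cells, all fell in WT SCC against WT skin, by 1.65, 2.61 and 2.70 on the log2 scale (adjusted p = 0.00193, 0.00168 and 9.09e-05). Counts of Pdcd1 per count of the summed CD3 genes were 0.175 and 0.171 in KO SCC, 0.0847, 0.155 and 0.117 in KO papilloma, and 0.211, 0.157 and 0.203 in WT SCC, against 0.0681, 0.0457 and 0.0415 in WT skin. All lesion libraries lay above all skin libraries. The Pdcd1 ratio was 3.74-fold higher in WT SCC than in WT skin, a difference that stayed between 1.76 and 2.12 on the log2 scale when any library was left out.

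The CD3 genes are part of a list of 19 T cell markers, of which 16 fell and 2 (Trbc2 and Cd5) rose in WT SCC against WT skin. Of all genes, 23.6% were called lower and 16.9% higher in that comparison. The list summed to 202 to 227 CPM in WT SCC and 259 to 346 CPM in WT skin, and 2 genes made up most of it. Trbc2, a T cell receptor beta constant gene, had 115 ± 19.5 CPM in WT SCC and 39.6 ± 6.90 CPM in WT skin, and Thy1, which fibroblasts also make, had 64.0 ± 9.53 CPM in WT SCC and 154 ± 47.5 CPM in WT skin (SD, n = 3 each). Divided by counts of the whole list, a denominator added after seeing the data, none of the 4 receptors separated WT SCC from WT skin: the mean log2 difference was 0.09 for Pdcd1, 0.14 for Havcr2, -0.48 for Lag3 and -0.45 for Tigit, all with overlap. The rise of the receptor ratios over skin thus holds against the CD3 genes and not against the list's sum.

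For Tigit per CD3, the ratio was 0.158 and 0.486 in KO SCC, 0.0605 to 0.140 in KO papilloma and 0.0556 to 0.138 in WT SCC, against 0.0292 to 0.0464 in WT skin. For Havcr2 per CD3 it was 0.816 and 1.68 in KO SCC, 0.573 to 0.653 in KO papilloma and 0.587 to 0.801 in WT SCC, against 0.128 to 0.227 in WT skin. Both ratios were higher in all lesion libraries than in all skin libraries, by 2.57-fold for Tigit and 3.88-fold for Havcr2 in WT SCC against WT skin. For Lag3 per CD3 it was 0.307 and 0.207 in KO SCC, 0.141 to 0.249 in KO papilloma and 0.317 to 0.390 in WT SCC, against 0.10 to 0.215 in WT skin. Here WT SCC stood above skin by 2.52-fold, while KO SCC and KO papilloma overlapped skin, and KO SCC lay 1.41-fold below WT SCC without overlap. In the same comparison, KO SCC lay above WT SCC without overlap by 2.97-fold for Tigit per CD3 and 1.68-fold for Havcr2 per CD3. With any library left out, these differences ran from 0.76 to 2.38 and from 0.23 to 1.27 on the log2 scale. The higher KO SCC value of both ratios (0.486 and 1.68) came from replicate 2, the library with Y-linked and Xist counts. Against the whole T cell list, Lag3 and Pdcd1 were 2.20-fold and 1.70-fold lower in KO SCC than in WT SCC without overlap, while Tigit and Havcr2 overlapped. Each of the CD3 ratio differences named had an exact permutation p of 0.1, the smallest possible, and 0.171 after adjustment over the 24 ratio tests. TIM-3 is also made by myeloid cells, and 14 macrophage markers summed to 259 to 321 CPM in KO SCC, 261 to 405 CPM in KO papilloma and 514 to 684 CPM in WT SCC, against 894 to 2266 CPM in WT skin. Their part in the ratio was not tested.

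**Figure D3:**
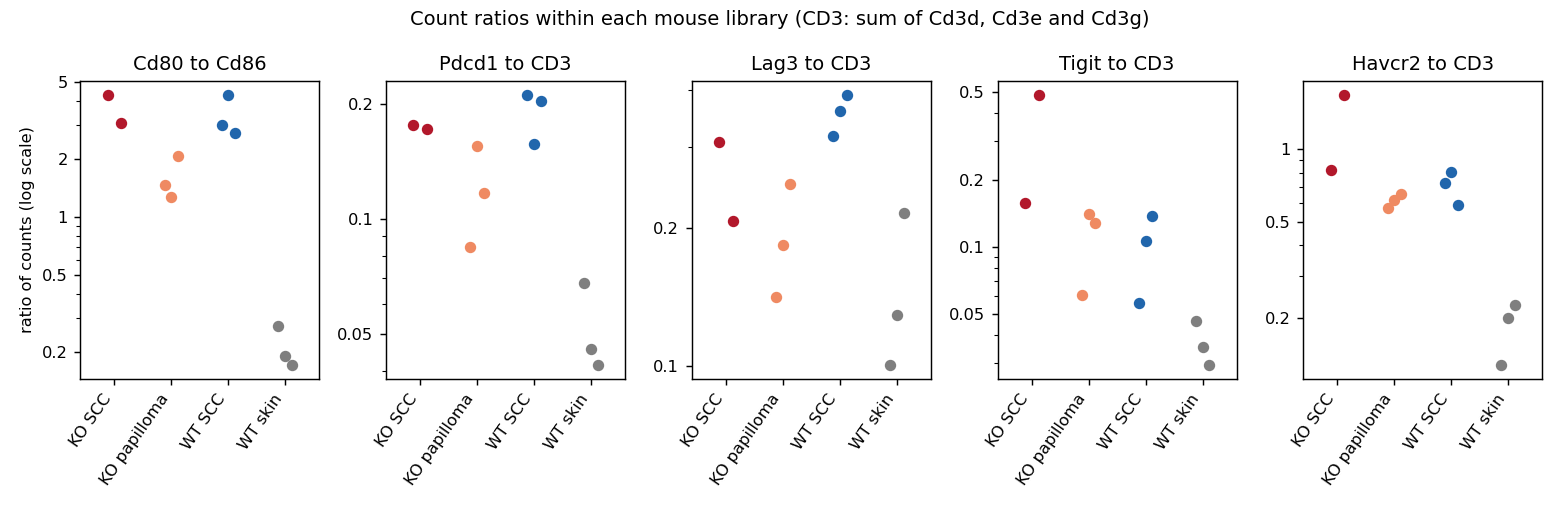
Ratio of counts within each mouse library (y axis, log scale, a scale of its own per panel) for Cd80 to Cd86 and for Pdcd1, Lag3, Tigit and Havcr2 to the sum of the CD3 genes Cd3d, Cd3e and Cd3g; each point is 1 library of KO SCC, KO papilloma, WT SCC or WT skin. Skin lies lowest in all panels but that of Lag3, where it overlaps KO SCC and KO papilloma, and Cd80 to Cd86 is 2.73 to 4.32 in WT SCC and 0.171 to 0.273 in WT skin.

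The other genes of the checkpoint pathways were read as lists. Of 13 further inhibitory receptors, 9 fell and none rose in WT SCC against WT skin (median log2 -1.40), where 23.6% of all genes were called lower and 16.9% higher (median log2 -0.16). The same shares stand beside the further counts of this comparison below. Cd200r1, the receptor of CD200 on myeloid cells, had 1.63 ± 0.226 CPM in WT SCC and 9.50 ± 2.76 CPM in WT skin (SD, n = 3 each; adjusted p = 0.000462), and Vsir (VISTA), Klrc1 (NKG2A) and Cd244a fell with it by 1.40, 2.64 and 0.95 on the log2 scale. Of 13 inhibitory ligands tested, 8 fell and 1 rose (median log2 -1.20). Cd47, the signal that keeps macrophages from engulfing a cell, had 49.8 ± 1.05 CPM in WT SCC and 114 ± 4.68 CPM in WT skin (SD, n = 3 each; adjusted p = 1.95e-05), and Nectin3, Fgl2 and Cd200 fell by 3.17, 3.03 and 2.08. The 1 that rose was Cd276 (B7-H3), another member of the B7 family of Cd80, at 30.6 ± 1.26 CPM in WT SCC and 17.1 ± 4.18 CPM in WT skin (log2 0.84, adjusted p = 0.00438). It was chosen for mention after its value was seen.

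On the activating side, 6 of 9 costimulatory receptors fell and none rose in WT SCC against WT skin (median log2 -1.92), beside 23.6% of all genes called lower. Cd28, the activating receptor for CD80 and CD86, had 0.495 ± 0.126 CPM in WT SCC and 2.64 ± 1.20 CPM in WT skin (SD, n = 3 each; log2 -2.41, adjusted p = 0.00209), and Cd2, Tnfrsf4 (OX40) and Cd27 fell by 2.21, 1.05 and 2.25. Of 6 costimulatory ligands tested, Cd48 fell by 1.84 and Tnfsf9 (4-1BB ligand) rose by 1.23 on the log2 scale. Of 20 genes of interferon gamma signalling, 14 fell and none rose (median log2 -1.11), led by the immunoproteasome gene Psmb9 (log2 -1.99), Gbp2 (-2.39) and the peptide transporter Tap1 (-1.17) among others. A list of 15 genes joined enzymes that handle tryptophan, adenosine and arginine to the aryl hydrocarbon receptor and its targets. Of these, 3 rose and 8 fell, beside 16.9% and 23.6% of all genes. The kynurenine aminotransferase gene Kyat1 and the receptor's target Tiparp rose by 1.38 and 1.09, whereas Ahr and Ahrr fell by 1.38 and 3.15. In that comparison 7 of 8 general leukocyte genes fell as well (median log2 -1.04), and what part they have in these counts was not tested.

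In KO SCC against WT SCC, edgeR called 3 of 13 inhibitory receptors, 1 of 6 costimulatory ligands and 2 of 20 interferon gamma genes, beside 7.87% of all genes. Of the inhibitory receptors, Sirpa, the receptor of CD47, and Vsir fell by 1.06 and 1.02 on the log2 scale, and Ceacam1, which TIM-3 can bind and which epithelium also makes, rose by 3.51 (83.0 ± 12.9 CPM in KO SCC, n = 2, and 7.25 ± 2.22 CPM in WT SCC, n = 3, SD; adjusted p = 0.00423). Ceacam1 has near relatives in the mouse genome, and the sources used here do not say how shared reads were counted. Icosl, the ligand of ICOS, fell by 1.26 (adjusted p = 0.0212), and of the interferon gamma genes Tap1 fell by 0.86 (adjusted p = 0.0187). None of the 13 inhibitory ligands, 9 costimulatory receptors and 15 genes of the tryptophan, adenosine and arginine list was called by edgeR. Each of these lists had 2 genes at an unadjusted p under 0.05, beside 5537 of all 22371 genes tested. Without KO SCC replicate 2, Sirpa and Ceacam1 were still called, while Vsir, Icosl and Tap1 were not (adjusted p = 0.115, 0.0525 and 0.0668). In KO SCC against KO papilloma, Tap1 fell by 1.14, a call that was lost without that library (adjusted p = 0.083). With all libraries, 2 of the 20 interferon gamma genes were called there, beside 0.286% of all genes. In KO papilloma against WT SCC, Ceacam1, Lgals3 and Cd200 rose by 3.12, 0.77 and 0.99, and Sirpa fell by 0.55. They were 2 of 13 inhibitory receptors and 2 of 13 inhibitory ligands, beside 5.25% of all genes called. These 3 comparisons share libraries pairwise and are not independent.

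**Figure D4:**
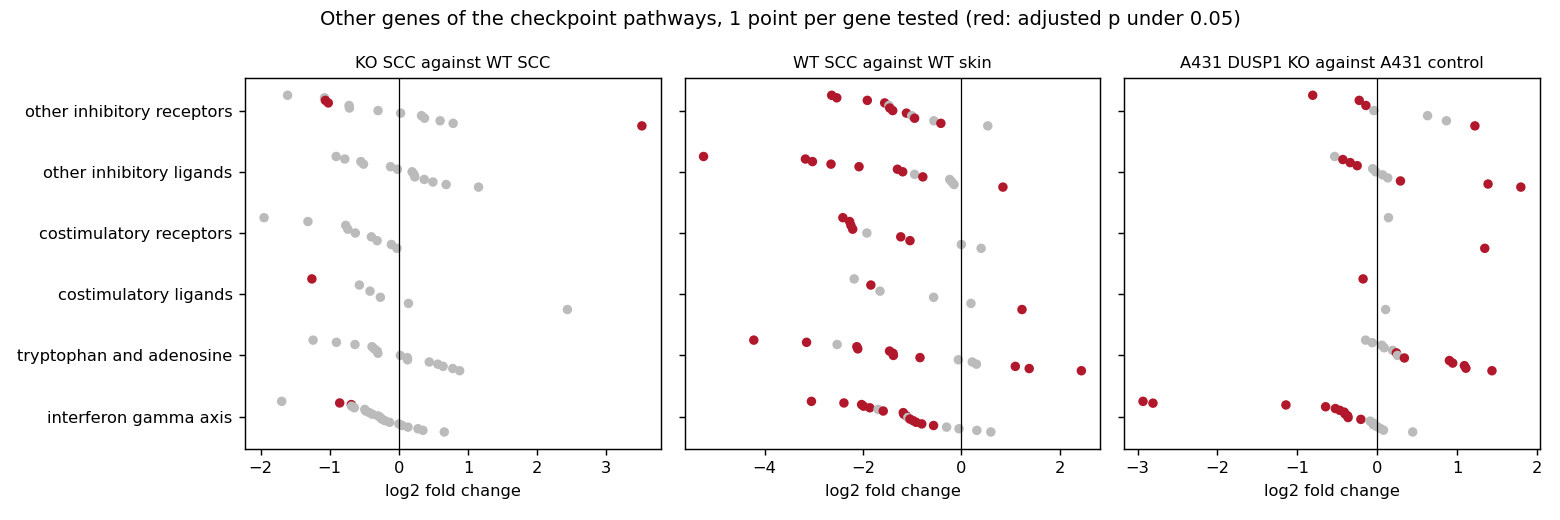
Log2 fold change (x axis) of each tested gene of 6 lists (rows; 1 point per gene, ordered by value within its row) in KO SCC against WT SCC, WT SCC against WT skin and A431 DUSP1 KO against A431 control; red marks an adjusted p under 0.05 in edgeR. Calls of the interferon gamma list lie left of 0 in all panels, 2 of 20, 14 of 20 and 11 of 18 genes. Of all genes tested, 3.38%, 23.6% and 24.5% were called lower in the same order of panels.

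The counts of A431 cells recovered from xenografts come from the human carcinoma line, the tumour side of the checkpoints. PTPRC, the gene of the leukocyte antigen CD45, had 0 counts in all 3 DUSP1 KO libraries and 0 to 2 counts in the controls. Of the 6 ligand genes, 4 passed the filter on low counts. CD80 had 0 to 3 counts in DUSP1 KO and 0 to 5 in control libraries, and IDO1 had 0 to 5 in each arm, so neither could be compared. Of the 4 tested, 1 fell and none rose, beside 47.6% of all 18090 genes called in that comparison.

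The 1 that fell was CD274. PD-L1 RNA stood at 5.16, 4.69 and 4.22 CPM in DUSP1 KO cells, against 6.82, 7.11 and 6.45 CPM in control cells. Every KO library lay below every control library, and the fall was 1.45-fold (log2 -0.53 ± 0.11 SE, adjusted p = 0.000866). It was also called without KO replicate 2 (adjusted p = 0.00305) and without KO replicate 3 (0.00585), the libraries that share a sample name. PDCD1LG2 had 0.490, 0.580 and 1.11 CPM in DUSP1 KO, against 1.07, 0.946 and 0.707 CPM in control cells, with overlap (log2 -0.32, 95% interval -1.01 to 0.37). CD86 had 11 to 18 counts in DUSP1 KO and 16 to 36 in control libraries (log2 -0.60, -1.39 to 0.18).

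LGALS9 was uncertain, because human cells carry the near-identical copies LGALS9B and LGALS9C, and the counting rule for shared reads is not given. By itself, LGALS9 had 1.53, 1.74 and 1.04 CPM in DUSP1 KO, against 2.26, 1.80 and 1.83 CPM in control cells, without overlap but not called (log2 -0.44, adjusted p = 0.106). The copy LGALS9C held most of the counts, at 45.6 ± 2.85 CPM in DUSP1 KO and 34.0 ± 1.16 CPM in control cells (SD, n = 3 each; log2 0.42, adjusted p = 1.37e-05). Summed over the 3 genes, the level was 54.0 ± 2.62 CPM in DUSP1 KO and 39.8 ± 0.920 CPM in control cells (SD, n = 3 each), 1.35-fold higher in the KO cells (adjusted p = 3.66e-06). The direction for galectin-9 thus turned with the treatment of the copies.

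**Figure D5:**
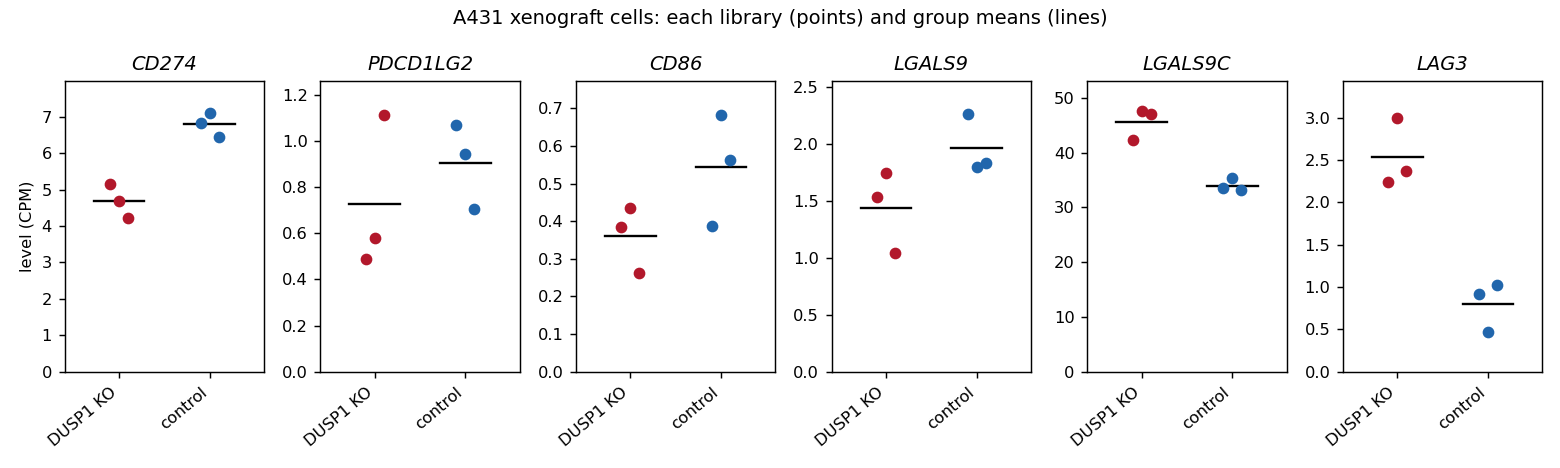
Level in CPM (y axis, from 0, a scale of its own per gene) of CD274, PDCD1LG2, CD86, LGALS9, LGALS9C and LAG3 in the 3 DUSP1 KO and 3 control A431 libraries (points), with the group mean (line). CD274 lies at 4.22 to 5.16 CPM in DUSP1 KO and at 6.45 to 7.11 CPM in control cells, LGALS9C and LAG3 lie higher and LGALS9 lower in DUSP1 KO without overlap, and PDCD1LG2 and CD86 overlap.

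Around CD274, 11 of 18 interferon gamma genes fell in DUSP1 KO cells and none rose, where 24.5% of all genes were called lower and 23.1% higher. Fibroblast markers of the list, also made by some carcinoma cells, summed to 135 to 146 CPM in DUSP1 KO and 523 to 559 CPM in control cells, with FN1 as the main part, and their part in the CD274 result was not tested. TAP1 had 74.6 ± 2.49 CPM in DUSP1 KO and 117 ± 3.15 CPM in control cells (SD, n = 3 each; log2 -0.65, adjusted p = 7.46e-09), and the chemokine CXCL10 and GBP3 fell by 2.81 and 0.52 on the log2 scale. Of 13 genes tested of the mixed list of tryptophan, adenosine and arginine enzymes and the aryl hydrocarbon receptor, 7 rose and none fell. Those with the smallest p were ARG1 (arginase), NT5E (CD73, which makes adenosine), HAAO, an enzyme of the kynurenine route, and AHR, the receptor itself, which rose by 1.09, 0.95, 1.44 and 0.34 on the log2 scale. The 7 of 13 called, like the 6 of 11 and 4 of 7 of the next lists, lie near the 47.6% of all genes called in either direction. All 7 of the mixed list rose, where 23.1% of all genes were called higher. Of 11 inhibitory ligands 3 rose and 3 fell, with CD276, HMGB1 and LGALS3 lower by 0.43, 0.34 and 0.25 and NECTIN2, a TIGIT ligand, higher by 0.29. Of 7 inhibitory receptors, CEACAM1 rose by 1.22 and VSIR, SIRPA and CD200R1 fell by 0.22, 0.14 and 0.81. CD27, of the 2 costimulatory receptors tested, rose by 1.35, and TNFSF9, of the 2 costimulatory ligands, fell by 0.18. Tap1 was lower in KO SCC than in WT SCC, too, while Cd274 was not called there; whether the CD274 change differs between A431 and mouse was not tested.

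The genes whose log2 CPM followed each checkpoint gene most closely over the 11 mouse libraries were found by Pearson's r among genes with an average log2 CPM of at least 1. For Cd274 these were Gucy1b1, Hhex and Calcrl (r = 0.971, 0.966 and 0.964), and for Cd80 Bok, Ces2e and Gm7665 (0.986, 0.985 and 0.985). Cd86 was followed by Tnfsf10, Ankrd44 and Slc6a19 (0.963, 0.962 and 0.958), Lag3 by Acy3, Mfsd12 and Kcnab2 (0.969, 0.967 and 0.966) and Lgals9 by Fbln5, Adamts15 and Mmrn2 (0.965, 0.936 and 0.927). Pdcd1lg2 lay nearest to Lrmp (0.942), Havcr2 to Csf2rb (0.917), Pdcd1 to Fkbp10 (0.887), Tigit to Tusc1 (0.886) and Ido1 to Zfp458 (0.877). Skin and lesions form separate clusters of libraries, so these values describe the set and carry no test.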

How the data were processed

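The authors deposited raw read counts per gene, in 1 mouse and 1 A431 table. The builds mm10 and hg38 and the tools HISAT2, StringTie and DESeq are named in the submitters' processing notes. Libraries were made with a stranded mRNA kit, per the labels' protocols. For the counting rule, strand setting, treatment of shared reads and annotation, the record names none in the sources used here. Features without a gene name (0.115 to 0.496% of counts in mouse, 0.190 to 0.211% in A431) were left out. A common fit held the 11 mouse libraries in 4 groups and another the 6 A431 libraries, in edgeR 4.0.16 (R 4.3.3) with its default filter, TMM and the two-sided quasi-likelihood test, Benjamini-Hochberg adjusted over 22371 mouse and 18090 A431 genes. The labels do not say that replicates are separate animals or cultures, so p-values measure the spread between libraries, which may be technical. No pair of libraries agreed within sampling noise (chi-square per degree of freedom at least 14.6 in mouse and 3.51 in A431). A431 KO replicates 2 and 3, which share a sample name, had 5.18, within the 3.51 to 7.07 of control pairs and below the 12.4 and 13.8 of the other KO pairs; both were counted, and results without either are among the alternatives.

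The 10 genes and the gene lists were chosen with earlier results of these data known. All 10 were to be named, with the 6 ligands in A431, up to 4 called genes of smallest p per further list and comparison, and 3 genes most like each in pattern; Cd276, and CD4 with LAG3 in A431, were added after their values were seen. Some results are not reported here. Ratios of counts were compared by exact two-sided permutation tests. Levels per kb use exon lengths of GENCODE M21 on GRCm38, and promoters are RefSeq's. The scripts were tested on simulated data. Alternatives were RLE size factors, no filter, DESeq2 1.42.0, the replicate number as a block, a fit of only the groups compared, and leaving out each library; the values of KO SCC against WT skin and of the called pathway genes without KO SCC replicate 2, and ratios to the whole T cell list, were added after seeing the data. The limit given for a count of 0 covers counting error only, and the 95% intervals come from the edgeR fit and include the spread between libraries.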

Additional observations from a re-analysis of the deposited data

Results flagged for a closer look

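LAG3, a receptor gene and so outside the ligands compared in A431, gave a signal in these carcinoma cells. It averaged 2.54 CPM in DUSP1 KO cells (105, 124 and 100 counts) and 0.805 CPM in control cells (38, 25 and 49 counts), a log2 fold change of 1.67 ± 0.25 SE (edgeR, adjusted p = 3.72e-05). CD4, which adjoins LAG3 in the human genome, averaged 1.59 CPM in DUSP1 KO and 0.548 CPM in control cells (log2 1.53, adjusted p = 1e-04). The other receptors were at or near 0, with 0 counts of PDCD1 in all 6 libraries, 0 to 1 of HAVCR2 and 0 of TIGIT in DUSP1 KO, and 0 to 2 and 0 to 3 in control libraries. The 19 T cell markers, with CD4 among them, summed to 7.73 to 8.14 CPM in DUSP1 KO and 3.06 to 3.67 CPM in control cells, and CD3D had 0 to 2 counts in DUSP1 KO and 0 in control libraries; their part in the result was not tested.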

How the results depend on the processing

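Of 44 planned fold changes of checkpoint genes, the 5 called kept their direction under all alternatives run, Lag3 alone losing its call in some. Of the 39 not called, 14 changed sign somewhere. Checkpoint genes called in KO SCC against WT SCC were 2 in DESeq2, 2 with only the groups compared and 1 without the filter, and in KO SCC against KO papilloma 1 in DESeq2 and 1 without the filter. With LGALS9 summed over its copies (added after seeing the data), A431 had 2 and LGALS9 turned to 0.44. Divided by the whole T cell list in place of the CD3 genes (also added after), the log2 differences of WT SCC against WT skin turned to -0.48 for Lag3 and -0.45 for Tigit. Without KO SCC replicate 2, Ido1 in KO SCC against WT skin turned to -0.2808. Over all genes, calls in KO SCC against WT SCC were 3466 in DESeq2, 4097 with only the groups compared and 309 to 975 with a library left out. In KO SCC against KO papilloma they were 611 without the filter, 941 in DESeq2 and 0 to 84 with a library left out, and in KO papilloma against WT SCC 1854, 2232 and 478 to 1096. Replicate numbers did not pair libraries (r of deviations -0.411 to 0.166 in mouse, -0.0275 to 0.00688 in A431); with the replicate block, 798 genes were called in KO SCC against WT SCC and 1 in KO SCC against KO papilloma, and Pdcd1lg2 in KO papilloma against WT SCC turned to -0.0204. With a library left out, the log2 values of KO SCC against WT SCC ran from -0.18 to 0.77 (Cd274), -2.61 to 1.36 (Pdcd1lg2), -0.56 to 0.56 (Havcr2), -0.20 to 1.496 (Tigit) and -0.0828 to 0.25 (Cd86). In KO SCC against KO papilloma they ran from -0.42 to 0.53 (Cd274), -2.67 to 1.296 (Pdcd1lg2), -0.75 to 0.37 (Havcr2) and -0.67 to 1.02 (Tigit), and in KO papilloma against WT SCC from -0.17 to 0.39 (Pdcd1lg2), -1.76 to 0.22 (Ido1) and -0.13 to 0.26 (Lgals9). In WT SCC against WT skin they ran from -0.91 to 0.0868 (Pdcd1) and -1.42 to 0.25 (Ido1). The cause was not tested.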
